A study of Mus musculus with 8 samples.

Results

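Hair loss skin of Cchcr1 mutant mice was compared with normal skin of wild type mice, on 4 of the 8 skin samples of a study that used CRISPR/Cas9 on a chosen allele to obtain mice with patchy hair loss like that of alopecia areata. The edited gene, Cchcr1, codes for a protein with coiled coils. The samples were taken by their labels, 2 of mutant genotype with the hair phenotype hair loss and 2 of wild type genotype with normal skin, and the description below is mainly of genes that were lower in hair loss skin and of changes outside the hair shaft proteins. All mice were C57BL/6N, the tissue was skin, and no sample was given a treatment in the labels. Total RNA of each sample was labelled with Cy3 and hybridised to 1 Agilent mouse expression array. Hair loss replicate 1 was titled Mutant097 and replicate 2 Mutant113, while both wild type replicates were titled Wild001. The labels do not say whether such a number is an animal, whether the wild type samples came from separate mice, or how old the mice were, so p-values measure the spread between these samples, which may be technical. The other 4 samples, mutant normal skin (2 of Mutant097 and 2 of Mutant113), entered the fit only as a further estimate of the spread, and their mean level is given beside some results. The allele and the animals' sex and hair cycle stage are not given in the labels either.

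Mouse skin is a mixed tissue of epidermis, hair follicles, sebaceous glands, dermal fibroblasts, fat, vessels, nerves, immune cells and a thin sheet of skeletal muscle. The follicle cycles between growth (anagen), regression (catagen) and rest (telogen), and hair keratins, keratin-associated proteins and inner root sheath proteins are made in growth. In RNA from whole skin, fewer cells of a type and less RNA per cell cannot be told apart, and this holds for every gene below.

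Levels are given as log2 of the processed intensity minus the 75th percentile of the array, so that 0 is the 75th percentile of that array, and differences are hair loss minus wild type on the same log2 scale. That percentile was an intensity of 83.1 to 211 on the 8 arrays, and 25424 to 30205 of 55603 probes were well above background. The epidermal markers that define skin were bright on all 4 arrays, with Krt5, the basal keratin, at 9.23 and 8.79 in hair loss and 8.83 and 8.79 in wild type. Cchcr1 lay at 0.49 and -0.01 in hair loss and -0.03 and -0.07 in wild type, a difference of 0.29 (SE 0.23, adjusted p = 0.431) that did not pass the test, and the probe reports transcript level and not the edited sequence. The Y-linked gene Ddx3y was at 1.52 in hair loss replicate 1, -6.43 in replicate 2 and 1.20 and 1.24 in wild type, while Xist was at -5.45, 1.09, -5.09 and -5.84 in the same order. Hair loss replicate 2 therefore differed from the wild type samples in sex-linked transcripts. Among the called falls 0 were Y-linked, but the hair loss pair was split for these genes, with an SE of 3.34 for Ddx3y. Such a call could hardly arise, so the 0 says nothing about the other falls, and whether sex entered them was not tested. Both hair loss arrays lay in row 1 of the slide and both wild type arrays in row 2, so row and group cannot be told apart within these 4 arrays.

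Of 26689 probes well above background on both arrays of at least 1 group, 896 were called, 3.36%, at an adjusted p under 0.05 in limma. Hair loss skin was lower for 327 probes (1.23% of those tested) and higher for 569 (2.13%). The median difference over all probes tested was -0.04. The 327 falls had a median of -1.63, and 98 of them fell by at least 2 log2 units, whereas the rises had a median of 2.94. Of the falls, 225 were well above background on all 4 arrays and 32 were not well above background on either hair loss array. Probes with a gene symbol made up 211 of the falls, for 197 genes, and the other 116 stay unnamed. The rises held 69 probes of hair keratins, keratin-associated proteins and inner root sheath proteins and 500 others, and 223 of all rises were not well above background on either wild type array.

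**Figure D1:**
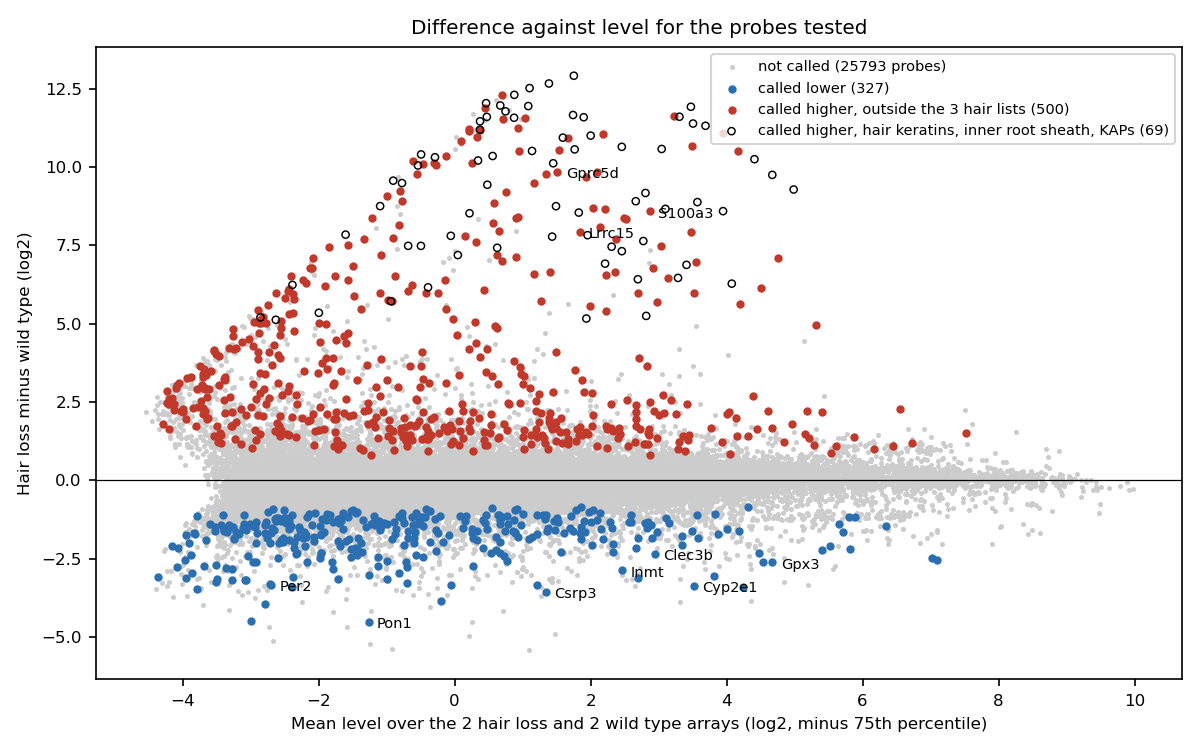
Difference between hair loss and wild type skin (vertical axis, log2) against the mean level over the 2 hair loss and 2 wild type arrays (horizontal axis, log2 minus the 75th percentile) for each probe tested. Blue points are the 327 probes called lower, red points the 500 called higher outside hair keratins, keratin-associated proteins and inner root sheath proteins, open circles the 69 called higher within them, and grey points were not called. The falls reach -4.52 for Pon1 among named genes, and the rises reach 10.14 for Olfr1134 among the genes named by rule outside the hair lists.

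These counts rest on few arrays. Without hair loss replicate 1 the fit called 20 probes, 3 of them lower, and without wild type replicate 1 it called 24, again 3 lower. Leaving out hair loss replicate 2 gave 936 calls and leaving out wild type replicate 2 gave 294, with 369 and 114 lower. The lone array of a group was then assumed to vary like the other groups. Averaging the arrays of each group and title number to 1 sample gave 0 calls in limma at the adjusted threshold, although 4627 probes had an unadjusted p under 0.05 there, against 7335 in the fit of 8 arrays. Each of the 327 falls stayed below 0 in all 19 alternatives in which it was tested, but that sign was largely fixed beforehand. All 327 lacked overlap between the groups, so leaving out 1 array could not reverse them. Other filters, the title number settings and the variance prior keep the same difference. Only quantile normalization, normexp and the slide row as a block could have changed a sign. Because wild type was a single title number, a difference between title numbers and one between genotypes cannot be told apart here.

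**Figure D2:**
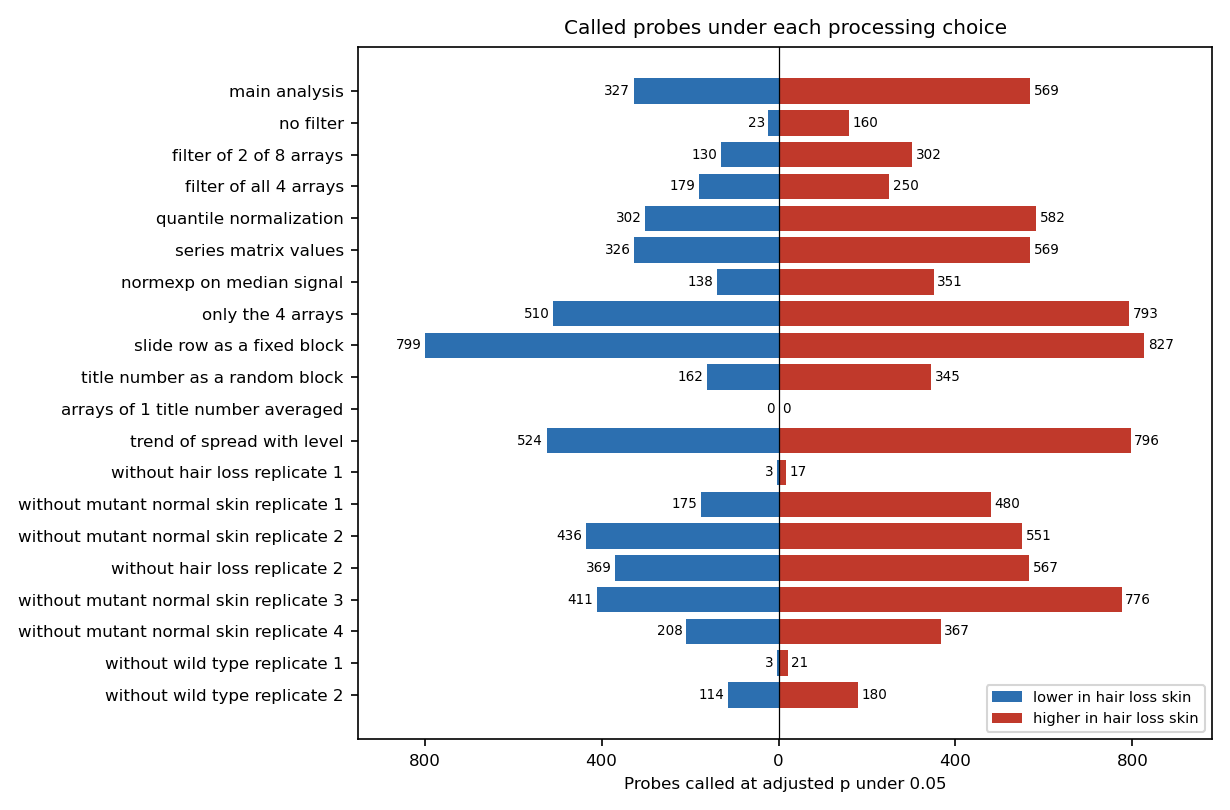
Number of probes called lower (blue bars, to the left) and higher (red bars, to the right) in hair loss skin under the main analysis and each of 19 alternatives, named on the vertical axis. Calls lower ranged from 0 with the arrays of 1 title number averaged to 799 with the slide row as a block, against 327 in the main analysis.

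Enzymes that detoxify small molecules and peroxides were among the largest falls. Pon1, a paraoxonase that hydrolyses lipid peroxides and organophosphates, lay at -3.77 and -3.27 in hair loss and 0.83 and 1.17 in wild type. It fell by 4.52 (SE 0.67, adjusted p = 0.0199), with 1 of the hair loss arrays not well above background, and under normexp background correction the difference was -2.28, smaller in size than that of Cyp2e1 (-3.05). Cyp2e1, the cytochrome P450 that oxidises ethanol and other small molecules, was at 1.95 and 1.72 against 5.22 and 5.2. It fell by 3.37 (SE 0.34, adjusted p = 0.00665), a 10.4-fold decrease, and its other probe fell by 3.36 (SE 0.32, adjusted p = 0.00553). The arrays of each group lay close together for Cyp2e1 and far from the other group. Inmt, an N-methyltransferase of small amines and thiols, stood at 1.27 and 0.78 in hair loss and 3.95 and 3.86 in wild type and fell by 2.88 (SE 0.26, adjusted p = 0.00544). Of the 18 probes of the 17 falls named by rule, Inmt alone was still called without hair loss replicate 1, where its adjusted p was 0.0352, and none was called without wild type replicate 1. Without hair loss replicate 2 or wild type replicate 2, 9 and 4 of the 18 were called.

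Gpx3, the secreted glutathione peroxidase, was at 3.29 and 3.43 in hair loss and 6.14 and 5.83 in wild type and fell by 2.62 (SE 0.26, adjusted p = 0.00621). The mutant normal skin mean was 3.42, near the hair loss level, whereas for Cyp2e1 it was 2.96, between the groups. Both were well above background on all 4 arrays. Nat8f6, of the N-acetyltransferase 8 family, and Ces2b, a carboxylesterase, were dim in hair loss skin. Nat8f6 lay at -4.25 and -3.94 against -0.33 and -1.06 and fell by 3.40 (SE 0.53, adjusted p = 0.0242). Ces2b was not well above background on either hair loss array, and its level was at least 4.87-fold lower there than in wild type (adjusted p = 0.0389). Such bounds set the brighter group's mean against the lowest signal counted as well above background on each dim array. They hold for the processed intensity, and under normexp some differences were smaller than their bounds. Under normexp background correction of the median signal, the fitted difference of Ces2b was -0.88 and that of Nat8f6 -1.23, so the sizes for dim probes depend on how background was handled.

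The list of detoxification and antioxidant enzymes had 21 members tested of 22 on the array. Of these 4 were called lower (Cyp2e1, Inmt, Gpx3 and Aox1) and 0 higher, where 1.15% of 13772 genes were called lower and 2.61% higher with 1 probe a gene. The median difference of the list was -1.06, against 0.03 over all genes. The groups did not overlap, hair loss being lower, for 15 of the 21 members, and 26.9% of all genes showed such a separation. The mean level of the list was 2.04 and 2.50 in hair loss, 3.37 and 3.44 in wild type and 2.51 to 2.81 over the mutant normal skin arrays. Aox1, aldehyde oxidase, lay at -0.36 and 0.46 in hair loss and 1.39 and 1.93 in wild type and fell by 1.61 (SE 0.32, adjusted p = 0.0437). Glutathione transferases did not pass with the brightest probe of each gene: Gstm1 differed by -1.29 (adjusted p = 0.0664) and Gstt1 by -1.27 (adjusted p = 0.0617). Cbr2, a carbonyl reductase, and Ephx1, microsomal epoxide hydrolase, differed by -1.06 and -0.96 without passing, and each had a dimmer probe that was called lower. Catalase (Cat) and extracellular superoxide dismutase (Sod3) overlapped between the groups, with differences of -0.58 and -0.23. With hair loss replicates 1 and 2 and wild type replicates 1 and 2 left out in turn, 1, 7, 0 and 3 members were called lower.

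**Figure D3:**
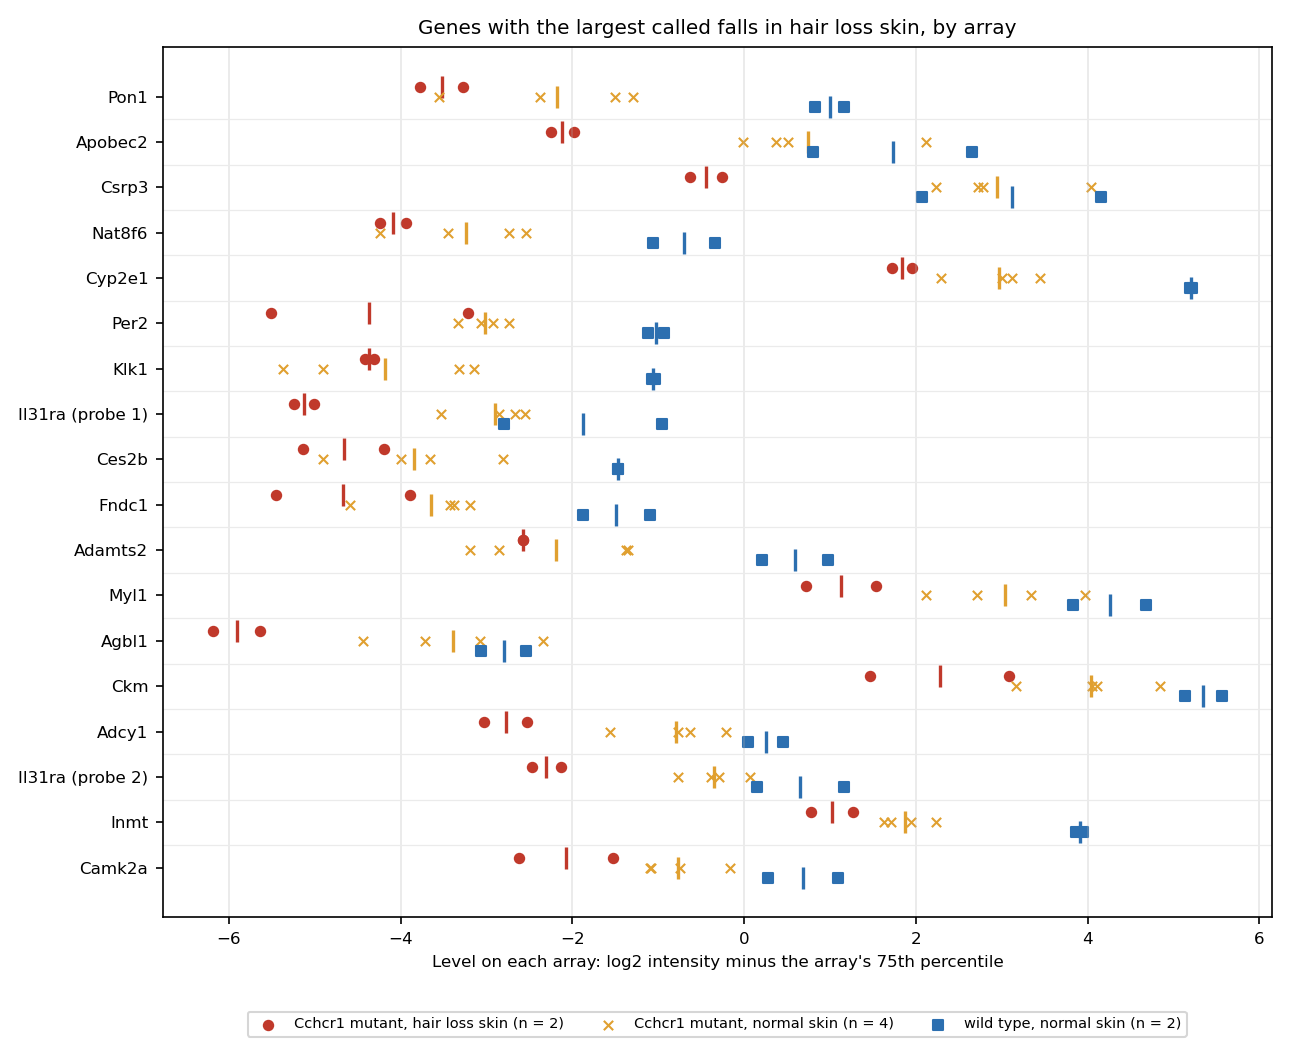
Level on each array (horizontal axis, log2 intensity minus the 75th percentile of the array) of the 18 probes of the falls named by rule. Red circles are the 2 hair loss arrays, orange crosses the 4 mutant normal skin arrays, blue squares the 2 wild type arrays, and short vertical lines group means. The hair loss circles lie left of both wild type squares in every line. All crosses lie between the groups in some lines, such as Cyp2e1 and Inmt, and in the others at least 1 cross reaches into or past a group. Those of Csrp3 all lie within the wild type range, and some of Klk1 and Adamts2 lie left of both hair loss circles.

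Tissue kallikreins are secreted serine proteases of the Klk1 cluster that release kinins or process growth factors, and 4 of them fell. Klk1 lay at -4.31 and -4.42 in hair loss, not well above background on either array, and at -1.08 and -1.04 in wild type. It was at least 6.98-fold lower in hair loss (adjusted p = 0.0492), with mutant normal skin at a mean of -4.19. Klk1b3 was above background on all 4 arrays, at -2.91 and -3.36 against -0.50 and -1.1, and fell by 2.34 (SE 0.37, adjusted p = 0.0244). The level of Klk1b24 was lower by at least 4.74-fold (adjusted p = 0.037), and Klk1b4 fell by 1.73 (SE 0.35, adjusted p = 0.0437). Of 14 kallikreins on the array 8 were tested, 4 of these only because wild type was above background, so the count of 4 lower and 0 higher is a description. Over all genes 1.15% were called lower. The median difference of the 8 kallikreins was -2.47, or -2.29 with the genes at background set to their bound. Their mean level was -2.99 and -3.84 in hair loss, -1.17 and -1.41 in wild type and -4.28 to -3.19 over the mutant normal skin arrays. Klk1b5 had a difference of -3.03 (adjusted p = 0.0784) and Klk1b26 of -2.68 (adjusted p = 0.07), which did not pass, and Klk1b21 overlapped between the groups. All of these are near-identical paralogs, so a probe may report several of them. Leaving out any 1 of the 4 arrays gave 0 calls in this list, and with normexp 1 member was called and the median was -0.91.

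Of 16 secreted products of dermal fibroblasts, 4 fell. Clec3b, tetranectin, a plasminogen-binding protein of the matrix, lay at 1.74 and 1.79 in hair loss and 4.28 and 3.97 in wild type. It fell by 2.36 (SE 0.27, adjusted p = 0.00881), and it was also called without hair loss replicate 2 and without wild type replicate 2. Dpt, dermatopontin, which binds decorin and collagen fibrils, stood at 0.90 and 1.58 against 2.93 and 3.32 and fell by 1.88 (SE 0.28, adjusted p = 0.0203). The small leucine-rich proteoglycan Ogn, osteoglycin, fell by 1.73 (SE 0.28, adjusted p = 0.0273), and Igfbp6, which binds insulin-like growth factor II, fell by 1.65 (SE 0.33, adjusted p = 0.044). Of the 16 tested, 0 were called higher, the median was -0.87, and 10 of the 16 did not overlap with hair loss the lower group, against 1.15% of all genes called lower and 26.9% so separated. Tnxb, tenascin X, just missed the threshold with -2.02 (adjusted p = 0.0504). The abundant proteoglycans Dcn and Lum differed by -0.97 and -1.12 (adjusted p = 0.153 and 0.14), while Pi16 and Fbln2 differed by 0.83 and 0.17. The mean level of the list was 3.64 and 4.03 in hair loss and 4.86 and 4.61 in wild type. Over the mutant normal skin arrays it was 3.90 to 4.37, below both wild type arrays. With hair loss replicates 1 and 2 and wild type replicates 1 and 2 left out in turn, 0, 3, 0 and 1 members were called lower.

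The structural matrix genes themselves gave no call. Of 12 collagens, fibrillin, elastin and related genes tested, 0 were called by limma (3 had an unadjusted p under 0.05), 11 lay below 0 and 7 did not overlap, with a median of -0.86, where 26.9% of all genes were separated with hair loss the lower group. Col1a1 was at 7.81 and 6.69 in hair loss and 8.55 and 7.59 in wild type (difference -0.82, adjusted p = 0.465), and those arrays overlapped. Col3a1 differed by -1.40 (adjusted p = 0.232) and Fn1, fibronectin, by -1.62 (adjusted p = 0.0943). The mean level of the 12 genes was 3.67 and 3.54 in hair loss and 4.82 and 4.31 in wild type. Over the mutant normal skin arrays it was 3.11 to 4.22, below both wild type arrays. With the slide row as a block, which takes the comparison through mutant normal skin, 6 of these 12 were called lower and the median was -2.01. An enzyme that acts on collagen did pass. Adamts2, which removes the amino-terminal propeptide of procollagens, lay at -2.57 and -2.57 in hair loss and 0.98 and 0.21 in wild type and fell by 3.17 (SE 0.65, adjusted p = 0.0448). Its brighter probe differed by -1.92 and was not called (adjusted p = 0.194). Fndc1, a fibronectin type III domain protein, was at -5.45 and -3.89 against -1.09 and -1.88 and fell by 3.18 (SE 0.61, adjusted p = 0.0409). Hair loss replicate 1 was the lower of the pair, and the difference was -2.40 without it and -3.97 without replicate 2. A brighter Fndc1 probe, at -0.46 and -0.49 and 2.26 and 1.62, fell by 2.42 (SE 0.43, adjusted p = 0.0334).

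Genes of skeletal muscle had lower levels on both hair loss arrays. All 21 muscle genes tested were below 0, none overlapped, and the median was -2.15, but 5 were called lower (Csrp3, Ckm, Mylpf, Myl1 and Acta1) and 0 higher. Over all genes 1.15% were called lower and 26.9% were separated in this direction. Acta1, skeletal alpha-actin, lay at 6.22 and 5.36 in hair loss and 8.09 and 8.44 in wild type and fell by 2.48 (SE 0.48, adjusted p = 0.0424). Ckm, the muscle creatine kinase, stood at 3.08 and 1.47 against 5.14 and 5.56 and fell by 3.07 (SE 0.61, adjusted p = 0.0437). Hair loss replicate 2 was the lower of the pair in each of these genes but Myh1. The mean level of the list was 4.09 and 2.87 in hair loss, 5.50 and 6.01 in wild type and 4.30 to 5.98 over the mutant normal skin arrays. Csrp3, the muscle LIM protein, lay at -0.25 and -0.63 against 2.08 and 4.16, a spread of over 2 log2 units within wild type, and fell by 3.56 (SE 0.73, adjusted p = 0.0449). Its difference was -4.60 without wild type replicate 1 and -2.52 without replicate 2.

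Both probes of Myl1, a fast muscle myosin light chain, were called. The brighter was at 6.31 and 5.34 in hair loss and 8.26 and 8.49 in wild type and fell by 2.55, and the other fell by 3.13 (SE 0.60, adjusted p = 0.0404). Apobec2, a muscle member of the cytidine deaminase family that was not on the list, stood at -1.98 and -2.25 against 0.80 and 2.66 and fell by 3.84 (SE 0.76, adjusted p = 0.0432). It too was the more variable in wild type, with -4.77 and -2.91 when wild type replicate 1 or 2 was left out. The fast fibre myosin Myh4 and troponins Tnnc2 and Tnni2, among the brightest of the list, differed by -1.48, -1.69 and -1.72 and did not pass (adjusted p = 0.189, 0.0959 and 0.0951). Leaving out any 1 of the 4 arrays, or taking the slide row as a block, gave 0 muscle calls, and with the row block the median was -1.13. With the title number as a random block 2 were called. How much of the other falls moved with the muscle content of the samples was not tested. Of 8 smooth muscle genes 0 were called and 4 had an unadjusted p under 0.05, with a median of -0.87, and Acta2, smooth muscle actin, was at 5.04 and 4.92 in hair loss and 5.31 and 5.21 in wild type.

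The circadian clock is a feedback loop in which Clock and Arntl (Bmal1) drive genes such as Per, Cry, Nr1d and Dbp through E-box elements, and the products repress their own transcription. In the PAR bZIP family, Dbp, Tef and Hlf activate genes through D-box elements. Of 13 clock genes tested, 4 were called lower (Per2, Dbp, Ciart and Tef) and 0 higher, the median was -1.15, and 11 did not overlap with hair loss the lower group, against 1.15% of all genes called lower and 26.9% so separated. Dbp lay at 3.88 and 5.06 in hair loss and 6.75 and 6.40 in wild type and fell by 2.11 (SE 0.37, adjusted p = 0.0335). Its other probe fell by 2.22 (SE 0.38, adjusted p = 0.0322). Hair loss replicate 1 was the lower of the pair for Dbp, as for each clock gene tested but Per1. Tef stood at 4.55 and 5.37 against 6.39 and 6.32 and fell by 1.39 (SE 0.27, adjusted p = 0.0429). Ciart, a repressor of Clock and Arntl, was at -2.13 and -1.65 against -0.32 and -0.58 and fell by 1.44 (SE 0.22, adjusted p = 0.0233).

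Per2, a core repressor, was at -5.52 and -3.22 in hair loss and -0.93 and -1.12 in wild type and fell by 3.34 (SE 0.62, adjusted p = 0.0377). The size depended on hair loss replicate 1, which was not well above background: without it the difference was -2.19 (adjusted p = 0.0724), and without replicate 2 it was -4.49 (adjusted p = 0.00651). With normexp the difference was -1.06. Per3, Cry2, Nr1d1 and Nr1d2 did not overlap but did not pass, with differences of -2.23, -0.95, -0.97 and -0.99 (adjusted p = 0.0728, 0.0647, 0.0836 and 0.0834). Arntl was on the other side of 0, at 0.96 and 1.09 in hair loss and -0.56 and 0.46 in wild type, a difference of 1.08 (adjusted p = 0.0864). Clock differed by 0.17 and overlapped. Nfil3, a repressor that acts on the same D-box elements and was picked out after its value was seen, rose by 1.85 (SE 0.34, adjusted p = 0.0377), from 0.10 and 0.83 in wild type to 2.54 and 2.08 in hair loss. The time of day at which the samples were taken is not given in the labels. With hair loss replicates 1 and 2 and wild type replicates 1 and 2 left out in turn, 0, 7, 0 and 0 clock genes were called lower, and 1 was called higher without wild type replicate 2. The fit of only the 4 arrays compared called 0 clock genes.

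**Figure D4:**
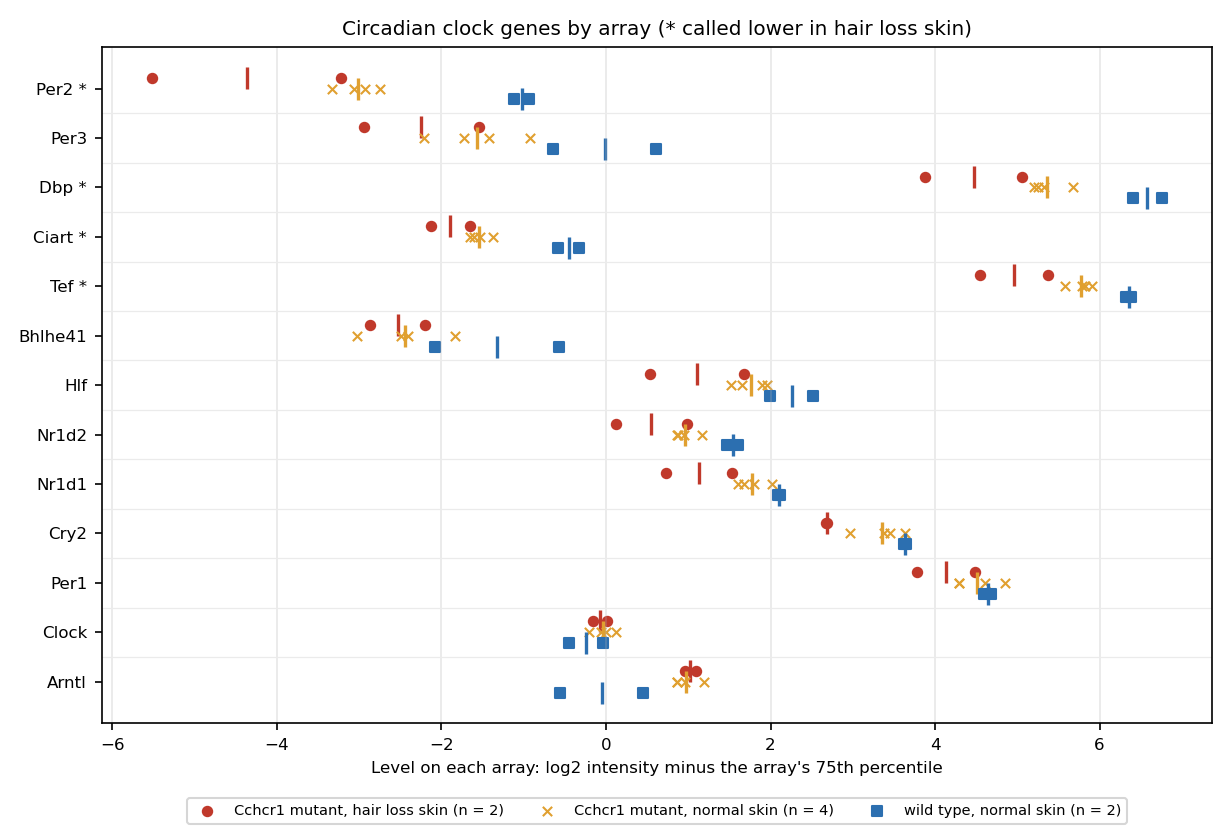
Level on each array (horizontal axis, log2 intensity minus the 75th percentile of the array) of the 13 clock genes tested, ordered by their difference. Red circles are the 2 hair loss arrays, orange crosses the 4 mutant normal skin arrays, blue squares the 2 wild type arrays, short vertical lines group means, and an asterisk marks a gene called lower. Per2, Dbp, Ciart and Tef are lower on both hair loss arrays than on both wild type arrays, and Arntl at the bottom is higher.

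Promoters of 14 of the 15 clock genes were matched by symbol in the RefSeq table of assembly GRCm38.p6, and the 250 bases before the annotated start were searched on both strands for the E-box CACGTG and the D-box TTATGTAA. The E-box was present in 5 of the 14 (Per1, Cry1, Tef, Ciart and Bhlhe41) and in 6.02% of the 32851 promoters searched, which leave out 1 chromosome. The D-box was present in 1 of the 14, Per3, and in 0.819% of the promoters searched. The clock counts are of genes with a match in any of their promoters and the percentages are of single promoters, so they are unlike measures. A match is a description of the sequence and not a site shown to be bound. The windows of the called falls that hold an E-box are printed 5′ to 3′, with the E-box in capitals. That of Ciart, chr3:95882229-95882478 on the minus strand, has 3 E-boxes, which begin 116, 58 and 44 bases before the start. That of Tef, chr15:81802423-81802672 on the plus strand, has 1, which begins 127 bases before the start.
Ciart: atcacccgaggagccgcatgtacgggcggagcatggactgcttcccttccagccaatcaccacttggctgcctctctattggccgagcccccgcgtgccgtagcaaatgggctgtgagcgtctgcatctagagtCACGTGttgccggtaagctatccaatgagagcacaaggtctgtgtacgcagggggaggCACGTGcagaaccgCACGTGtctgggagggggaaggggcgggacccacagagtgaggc
Tef: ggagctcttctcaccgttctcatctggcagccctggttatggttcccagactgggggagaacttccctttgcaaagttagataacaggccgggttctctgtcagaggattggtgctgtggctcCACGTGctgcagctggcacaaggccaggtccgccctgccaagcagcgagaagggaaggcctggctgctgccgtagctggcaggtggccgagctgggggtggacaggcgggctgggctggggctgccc

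Receptors and signalling genes of other kinds fell as well. Il31ra, the receptor subunit for the itch cytokine IL-31, was called with both probes. The brighter lay at -2.47 and -2.13 in hair loss and 1.17 and 0.14 in wild type and fell by 2.96 (SE 0.38, adjusted p = 0.0122). The dimmer was not well above background in hair loss and at least 3.95-fold lower there (adjusted p = 0.0316), with wild type at -0.96 and -2.79 and a difference of -2.33 or -4.17 when wild type replicate 1 or 2 was left out. The partner chain Osmr differed by 0.20 and did not pass (adjusted p = 0.585). Il31ra was the 1 call among 10 itch and type 2 genes tested, whose median was -0.10, where 1.15% of all genes were called lower. Adcy1, an adenylyl cyclase stimulated by calcium and calmodulin, was at -3.03 and -2.53 against 0.46 and 0.05 and fell by 3.03 (SE 0.41, adjusted p = 0.0151). Camk2a, a calmodulin-dependent kinase, was at -1.53 and -2.62 against 1.1 and 0.27 and fell by 2.76 (SE 0.47, adjusted p = 0.0295) with 1 probe, but its other probe differed by 3.83 in the opposite direction without being called, so the direction of Camk2a is unsettled. Agbl1, a carboxypeptidase of the tubulin deglutamylase family, was at least 2.08-fold lower (adjusted p = 0.0418), from -2.54 and -3.06 in wild type.

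Among 17 hair cycle signals tested, 4 of them only because hair loss was above background, Fgf18 was called lower and Wnt5a and Fgf5 higher. The list median was 0.30, and over all genes 1.15% were called lower and 2.61% higher. Fgf18, a growth factor that holds follicles in telogen, lay at 0.05 and 0.78 in hair loss and 2.71 and 2.72 in wild type. It fell by 2.30 (SE 0.39, adjusted p = 0.0316), and mutant normal skin had a mean of 2.11. Fgf5, which ends anagen, was not well above background in wild type and stood at -0.14 and -0.73 in hair loss, at least 7.67-fold higher (adjusted p = 0.044), but with normexp the difference was 1.31 and did not pass (adjusted p = 0.138). Wnt5a was at 2.29 and 1.54 against 0.35 and 0.53 and rose by 1.47 (SE 0.29, adjusted p = 0.0418). Bmp2, Bmp4 and Wnt10a did not pass, with differences of 0.30, -0.35 and -0.03. Cd34, a surface sialomucin of bulge stem cells, dermal fibroblasts and endothelium, was the 1 call lower among 10 follicle stem cell genes, at 5.65 and 5.58 against 7.10 and 7.03. It fell by 1.45 (SE 0.29, adjusted p = 0.0431), while Krt15, Lgr5 and Sox9 differed by -0.90, -0.46 and 0.79 and did not pass. In neither list was a member called without hair loss replicate 1 or without wild type replicate 1. With the title number as a random block Fgf18 was the 1 call of the hair cycle list, and 0 follicle stem cell genes were called.

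Of 14 macrophage genes tested, 2 were called lower, where 1.15% of all genes were. Folr2, a folate receptor of resident macrophages, lay at 1.93 and 2.35 in hair loss and 3.73 and 3.87 in wild type and fell by 1.66 (SE 0.24, adjusted p = 0.0194). Cd163, the haemoglobin scavenger receptor, was at -2.68 and -2.70 against -0.88 and -0.59 and fell by 1.96 (SE 0.39, adjusted p = 0.0437). All 14 differences lay below 0, 13 without overlap against 26.9% of all genes, and the median was -1.02, with the smallest difference in Aif1 (-0.04). The mean level of the list was 2.38 and 2.69 in hair loss and 3.43 and 3.59 in wild type. Over the mutant normal skin arrays it was 2.32 to 2.86, so these genes were as low in mutant skin without hair loss. The pan-macrophage markers Csf1r and Adgre1 differed by -1.07 and -0.48 and did not pass (adjusted p = 0.0911 and 0.273), although a dimmer Csf1r probe was called. With hair loss replicates 1 and 2 and wild type replicates 1 and 2 left out in turn, 0, 2, 0 and 0 members were called. In the complement list C3 differed by -1.42 and did not pass (adjusted p = 0.103), and Clu, clusterin, differed by 1.46 and did not pass either (adjusted p = 0.0787).

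Lymphocyte, antigen presentation and interferon genes gave 0 calls in limma on the brightest probes, and without hair loss replicate 2 the calls were 2 MHC class II genes, both lower. At an unadjusted p under 0.05 there were 0 T and NK cell genes, 0 MHC class I, 3 MHC class II and 1 interferon gene. Of 13 T and NK cell genes tested the median was -0.04, and Cd3e was at 1.84 and 1.99 in hair loss and 2.52 and 1.51 in wild type. Cd8a, Cd8b1 and Ncr1 were not well above background on both arrays of either group and were not tested. A brighter Cd4 probe differed by -0.26 and another by 5.78, which was called, so the probes of Cd4 disagree. The 11 MHC class I genes had a median of -0.02, with B2m at 6.02 and 6.90 against 6.76 and 7.15. The 8 MHC class II genes had a median of -0.64, and 6 of them lay lower in hair loss without overlap, against 26.9% of all genes. Cd74, the invariant chain, was at 6.22 and 6.93 against 7.29 and 7.20 (adjusted p = 0.196). The 15 interferon response genes had a median of -0.40, and the largest difference among them was in Usp18, -2.30 (adjusted p = 0.0671). In hair loss, replicate 1 was below replicate 2 for most genes of these lists, and with 2 arrays a group a p that misses the threshold does not show that the groups were alike.

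Outside the hair shaft proteins, the 10 largest rises included several genes known from hair-forming cells. S100a3, a calcium-binding protein of the hair cuticle, lay at 8.05 and 6.27 in hair loss and -1.23 and -1.62 in wild type and rose by 8.59 (SE 0.70, adjusted p = 0.00491). Padi3, the deiminase that acts on trichohyalin, was not well above background in wild type and at least 425-fold higher in hair loss (adjusted p = 0.00491). Gprc5d, an orphan receptor of cells that make hard keratin, was at 7.32 and 5.54 in hair loss and at least 844-fold higher (adjusted p = 0.00814). For these genes the 4 mutant normal skin arrays were high too, with means of 6.10, 4.21 and 4.70. With normexp Padi3 and Gprc5d were still called, but their differences of 6.25 and 7.18 were smaller than their bounds, 8.73 and 9.72 in log2. Lrrc15, a leucine-rich repeat membrane protein, rose by 7.94 (SE 0.71, adjusted p = 0.00544), and Vsig8, an immunoglobulin-domain protein, by 7.48 (SE 0.76, adjusted p = 0.00665). Crnn, cornulin of the cornified envelope, rose by 7.80 (SE 1.05, adjusted p = 0.0144).

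The rule also named Olfr1134, an olfactory receptor gene, at least 418-fold higher, and Lyg2, a goose-type lysozyme, at least 59.5-fold higher. Mecom, a zinc finger transcription factor, and Otop2, a proton channel, were at least 47-fold and 59.7-fold higher (adjusted p = 0.0216 and 0.0136). With normexp the differences of Olfr1134, Lyg2, Mecom and Otop2 were 6.42, 3.53, 3.32 and 3.42, each smaller than its bound. Under that correction Olfr1134, Mecom and Otop2 did not pass (adjusted p = 0.0755, 0.0736 and 0.0552). Of these 10 rises, 3 were called without hair loss replicate 1 (S100a3, Padi3 and Vsig8) and 2 without wild type replicate 1 (S100a3 and Lrrc15). For reference, 12 of 14 hair keratins, 8 of 9 inner root sheath genes and 38 of 49 keratin-associated proteins were called higher and 0 lower, where 2.61% of all genes were called higher. Of these lists 12, 3 and 33 members were tested only through hair loss. The mean levels of the lists in hair loss were 5.22 and 3.66, 7.36 and 6.20, and 6.36 and 4.88. Over the mutant normal skin arrays they were high too, at 1.54 to 4.45, 4.50 to 7.04 and 0.72 to 5.55. Without hair loss replicate 1 the calls were 2, 1 and 0, and without wild type replicate 1 they were 1, 5 and 0.

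Of 12 hair matrix transcription factors, 4 were called higher and 0 lower, with a median of 1.57, and 1 was tested only because hair loss was above background. Over all genes 2.61% were called higher, a share that serves for the melanocyte and proliferation lists as well. Hoxc13, which drives hair keratin genes, lay at 3.37 and 2.20 in hair loss and -0.50 and -1.20 in wild type and rose by 3.63 (SE 0.55, adjusted p = 0.0211). Msx2 rose by 3.34 (SE 0.56, adjusted p = 0.0281) and Prdm1 by 1.20 (SE 0.23, adjusted p = 0.0416), and Dlx4 was at least 8.06-fold higher. Melanocyte genes had a median of 3.0 over 12 tested, 4 of them only because hair loss was above background, or 1.76 with the genes at background set to their bound, and 3 were called higher. Kit, the receptor of melanoblasts and mast cells, lay at 0.95 and 1.39 against -0.80 and -0.65 and rose by 1.89 (SE 0.28, adjusted p = 0.0194), Tyrp1 of pigment synthesis rose by 3.94 (SE 0.82, adjusted p = 0.0466), and Gpr143 was at least 3.74-fold higher. Mlana, by contrast, differed by -1.13 and did not pass. Of 14 proliferation genes, 4 of which were tested only through hair loss, all differences were above 0 and 2 passed, Birc5 with 2.45 (SE 0.49, adjusted p = 0.0435) and Bub1 at least 3.77-fold higher, while Mki67 was at 4.04 and 3.43 against 1.30 and 1.76 (adjusted p = 0.0558). Without hair loss replicate 1 or wild type replicate 1, 0 members of these 3 lists were called. With the title number as a random block 3, 1 and 0 were called. In the same order, the mean levels of the lists in hair loss were 2.44 and 1.63, 1.38 and 0.46, and 1.57 and 1.16. In wild type they were 0.12 and -0.04, -1.18 and -1.92, and -0.64 and -0.002. Over the mutant normal skin arrays they were 1.31 to 2.00, -0.58 to 1.36 and 0.45 to 1.95, so mutant skin without hair loss reached similar levels. With normexp the differences of Dlx4, Gpr143 and Bub1 were 1.21, 0.69 and 0.52 and none passed (adjusted p = 0.11, 0.281 and 0.319). Each is smaller than its bound. The normexp difference of Tyrp1 was 2.71 and did not pass either (adjusted p = 0.0675).

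Of 11 genes of stressed epidermis, 3 were called higher, where 2.61% of all genes were. That share is the background for the interfollicular and granulocyte lists too. Krt17, a keratin of the follicle and of injured epidermis, lay at 8.55 and 8.02 in hair loss and 6.64 and 6.90 in wild type and rose by 1.52 (SE 0.31, adjusted p = 0.0466). Sprr1a, a cornified envelope precursor, stood at 7.89 and 7.49 against 5.38 and 5.47 and rose by 2.26 (SE 0.48, adjusted p = 0.0489), and the crosslinking enzyme Tgm1 rose by 1.65 (SE 0.33, adjusted p = 0.0437). All 11 differences lay above 0 without overlap, where 30.6% of all genes showed such a separation, but 5 of the 11 were tested only because hair loss was above background. The median was 3.38, and with the title number as a random block 0 members were called. The mean level of the list was 3.47 and 3.04 in hair loss and -0.95 and -0.41 in wild type. Over the mutant normal skin arrays it was -0.44 to 3.16. Krt6a and Krt16, induced in wounded and hyperproliferative epidermis, differed by 3.24 and 3.99 and did not pass (adjusted p = 0.0681 and 0.0933). In the interfollicular list, Casp14, the caspase of terminal differentiation, was the 1 call of 13 and rose by 2.56 (SE 0.30, adjusted p = 0.00886), from 0.91 and 1.58 to 3.85 and 3.77. The structural genes Krt10, Lor and Krt5 differed by -0.01, 0.20 and 0.20 and did not pass. Of 13 granulocyte and acute phase genes, 4 of them tested only through hair loss, 3 stefins were called higher: Stfa3 rose by 2.73 (SE 0.54, adjusted p = 0.0429), and Stfa2 and Stfa2l1, near-identical paralogs, were at least 10.8-fold and 3.69-fold higher. With normexp the difference of Stfa2l1 was 0.62 and did not pass (adjusted p = 0.122). S100a8 and S100a9 differed by 2.03 and 1.35 and did not pass, and Mpo, myeloperoxidase, lay on the other side of 0 without overlap, at -3.87 (adjusted p = 0.205). Without hair loss replicate 1 or wild type replicate 1, 0 members of these 3 lists were called.

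Genes of vitamin A handling, early response, fat and sebaceous glands gave few calls. The background is again 1.15% of all genes called lower and 2.61% called higher. In the retinoid list Stra6, a retinol transporter, rose by 3.24 (SE 0.67, adjusted p = 0.0466), and it was not called with the title number as a random block. Aldh1a1, which makes retinoic acid, was at 3.32 and 2.63 in hair loss against 5.04 and 4.46, a difference of -1.78 that did not pass (adjusted p = 0.0649). Egr1 was the 1 early response call of 11, at 5.13 and 4.13 against 1.79 and 2.60, and rose by 2.44 (SE 0.37, adjusted p = 0.0217). Of 16 adipocyte genes 0 were called and 2 had an unadjusted p under 0.05, the median was 0.10, and Adipoq lay at 4.0 and 5.15 against 4.27 and 4.46. Among 11 sebaceous genes Scd3, a stearoyl-CoA desaturase of the gland, fell by 1.86 (SE 0.27, adjusted p = 0.0188), from 4.59 and 4.42 to 2.79 and 2.50. Fads2, a fatty acid desaturase, was at least 1.29-fold higher (adjusted p = 0.0453), with -0.01 under normexp. None of these 4 lists had a call without hair loss replicate 1 or without wild type replicate 1.

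Endothelial, nerve, red blood cell, mast cell, dendritic cell and glucocorticoid response genes gave 0 calls in limma, with medians of -0.57, -0.47, 0.95, 0.86, 0.19 and 0.16. At an unadjusted p under 0.05 they gave 3, 4, 0, 2, 3 and 4 genes. The nerve list had 1 call lower without hair loss replicate 2 and 2 with the slide row as a block, and a dimmer probe of Mbp, a myelin protein, was called lower at -1.80 (adjusted p = 0.049). The lymphatic marker Lyve1 differed by -1.52 (adjusted p = 0.077). The mast cell protease Mcpt4 was at 4.96 and 6.37 in hair loss and 4.76 and 4.85 in wild type, with hair loss replicate 2 the highest. The 11 housekeeping genes had a median of 0.02, 0 calls and 2 genes with an unadjusted p under 0.05, and Gapdh, Gusb and Actb differed by -0.77, -1.06 and 0.01.

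**Figure D5:**
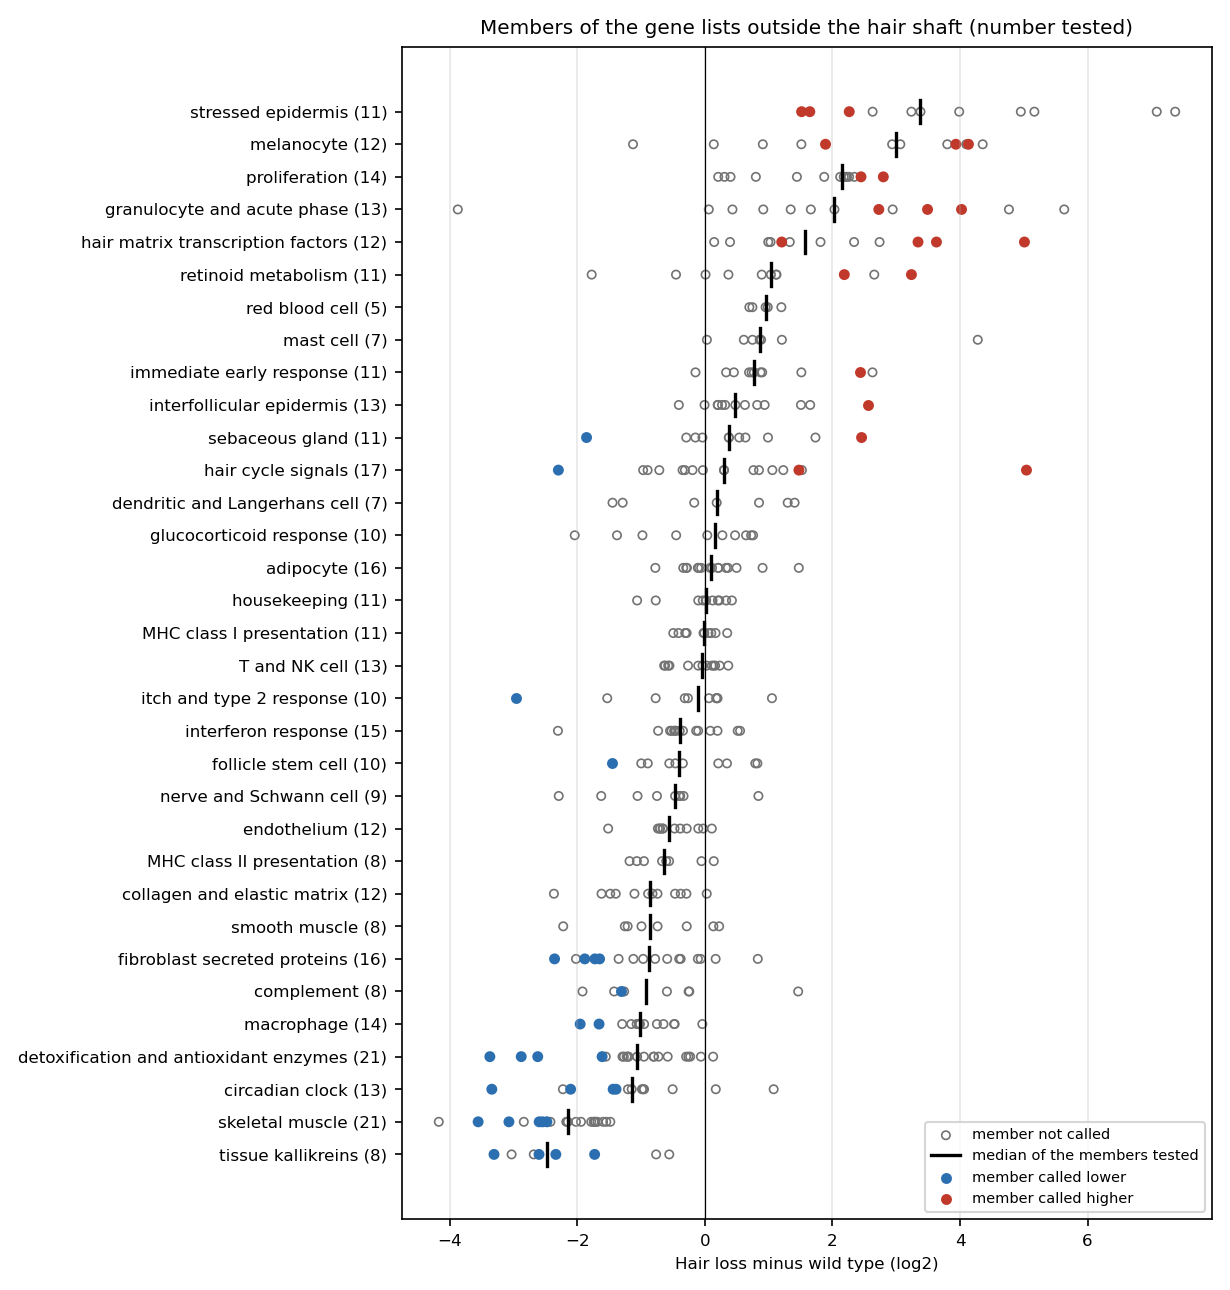
Difference between hair loss and wild type skin (horizontal axis, log2) of each tested member of the 33 gene lists outside hair keratins, inner root sheath and keratin-associated proteins, 1 probe a gene. Blue dots are members called lower, red dots called higher, open circles not called, and black bars list medians, by which the lists are ordered. The lowest medians are those of tissue kallikreins (-2.47), skeletal muscle (-2.15), the circadian clock (-1.15) and detoxification enzymes (-1.06), and the highest is stressed epidermis (3.38).

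Few probes were called between the hair loss arrays themselves. That does not show the arrays were alike, since 1 array stood on each side and the fit had 3 residual degrees of freedom. The list means of replicates 1 and 2 were 5.22 and 3.66 for hair keratins and 4.09 and 2.87 for skeletal muscle. A model of 5 cells of group and title number, whose spread came from the normal skin pairs, called 5 of 26689 probes, 0.0187%, between hair loss of Mutant113 and of Mutant097. Of these, Ddx3y was lower in Mutant113 by a difference of -7.95 and Eif2s3y by -8.86 (adjusted p = 0.00143 and 0.00213), both Y-linked. Gpr4, a proton-sensing receptor of endothelium, lay at 2.15 in hair loss of Mutant097 and at -3.48 in that of Mutant113 (adjusted p = 0.0443), with wild type at -3.44 and -3.28. The other 2 probes have no symbol. With 1 array on each side, this compares those samples and not the conditions.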

How the data were processed

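Levels of RNA in mouse skin were measured on 8 Agilent 8 x 60K arrays, 1 per sample. Per the file headers, the authors extracted intensity with Agilent Feature Extraction 11.5.1.1, which subtracts background within each array, and per the labels each sample was labelled with Cy3. Here log2 of the processed intensity was taken minus the 75th percentile of each array. The authors' deposited log2 value table differed from this only by a constant per array, for all 55603 probes within 0.01. Control spots and outlier spots were left out (0 spots were saturated) and spots of 1 probe averaged. Besides intensity, the deposited flags for signal well above background were used.

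Probes well above background on both arrays of hair loss or of wild type were fitted in limma 3.58.1 (R 4.3.3), in 1 model of 3 groups over 8 arrays with 5 residual degrees of freedom, Benjamini-Hochberg adjustment over all 26689 probes tested and a threshold of 0.05. Each adjusted p printed is from such a limma fit. In simulated data 200 of 26689 probes fell and the others held only independent noise with the spread of the real probe. There, falls of 1, 2, 3 and 4 log2 units were recovered for 0%, 64%, 86% and 92.5% of 200 probes each, so falls of 1 log2 unit were missed. The real arrays had more calls, which loosens the adjusted threshold, so these rates need not carry over. Gene symbols were taken from RefSeq by the transcript identifier that the array design gives for each probe, and probes without a match stay unnamed.

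The groups, the 36 gene lists and their members were chosen with earlier results of these data known. Named genes were the 15 largest called falls, the 10 largest among probes above background on all 4 arrays, the 10 largest rises outside hair lists, and up to 6 members of each list with the highest mean. Called list members and other genes outside this rule were named after their values were seen. Some genes are not reported here. For lists, 462 genes were tested with the brightest probe of each. The precision is limited by 2 arrays a group. Alternatives were other filters, normalization, background correction, samples, blocks and the omission of each array. With normexp an offset of 50 was used.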

Additional observations from a re-analysis of the deposited data

Results flagged for a closer look

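Fndc1 in mutant normal skin had 1 array apart from the others: replicate 3 was at -4.59, and its gap to the nearest array was a larger share of the range than the limit for 4 samples, which chance passes in about 1 of 20 groups. Between the hair loss samples of Mutant113 and Mutant097 the difference itself passed the limma test for 5 probes. Ddx3y and Eif2s3y, both Y-linked, differed by -7.95 and -8.86. Gpr4 differed by -5.63 (adjusted p = 0.0443), with Mutant097 the sample apart from wild type. A probe without a symbol, A_55_P2068006, differed by -3.94 (adjusted p = 0.0443). Another, A_66_P119429, differed by 5.73 (adjusted p = 0.00571), with -0.49 in hair loss of Mutant097, 5.24 in that of Mutant113 and 4.87 and 5.07 in wild type. Each of these differences rests on 1 array on each side.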

How the results depend on the processing

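The counts moved with the processing. Each of the 327 falls stayed below 0 wherever it was tested, and the 569 rises stayed above 0 except under normexp, where 561 did. No called probe overlapped between the groups, so leaving out 1 array could not change a sign. Medians of some lists near 0 changed sign, as with the row block for interferon genes (-0.40 to 0.34) and hair cycle signals (0.30 to -0.16), and Cchcr1 was called in none of 19 alternatives. Against 896 probes called, 327 of them lower and 569 higher, testing all probes without a filter gave 183, 23 and 160. Probes above background on 2 of the 8 arrays gave 432, 130 and 302, and on all 4 arrays 429, 179 and 250. Normexp on the median signal, chosen after seeing the data, gave 489, 138 and 351. The slide row as a block gave 1626, of which 799 were lower. The title number as a random block gave 507, 162 and 345, with 9 of the 18 probes of named falls, and averaging arrays of 1 title number gave 0, 0 and 0. Calls lower were 510 with only the 4 arrays in the fit and 524 with a trend in the variance prior. Leaving out 1 array gave 20 to 1187 probes called, 3 to 436 lower and 17 to 776 higher. The share of calls that were lower was 36.5%, and it was 12.6% without a filter, 49.1% with the row block, 15% without hair loss replicate 1 and 12.5% without wild type replicate 1. Without a filter the median difference was -0.36 and with the row block -0.10. Of the 327 falls, 255 were called lower with quantile normalization, 113 with normexp, 176 with only the 4 arrays and 136 with the row block. Hair loss of Mutant113 against Mutant097 gave 5 probes, and 34 without a filter, 9 with the filter on 2 of 8 arrays, 1 with that on all 4, 107 with normexp, 21 with the trend and 2 to 3 with 1 array left out. No paired analysis was possible because the hair loss and wild type samples share no title number. Normexp on the mean signal was not run, since the deposited files used here hold the median signal alone. Dim probes limit the sizes: with normexp, Klk1 was at -1.16, Agbl1 at -0.71 and Fndc1 at -0.86.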

Other observations

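Several called falls lay outside the lists and were picked out after their values were seen, and they stand for no group of genes. Plod1, a lysyl hydroxylase, fell by 2.07 (SE 0.37, adjusted p = 0.0354), P4ha1, a prolyl hydroxylase subunit, by 1.15 (SE 0.21, adjusted p = 0.0383), and Loxl2, a lysyl oxidase, by 1.38 (SE 0.29, adjusted p = 0.0483), while Lox differed by -2.37 and did not pass (adjusted p = 0.211). Sspn, sarcospan, a membrane protein of muscle, fell by 1.42 (SE 0.25, adjusted p = 0.0337). Abca8a, Abca8b and Abca6, neighbouring lipid transporters of the ABC family, fell by 1.84, 1.5 and 1.80 (adjusted p = 0.0366, 0.0415 and 0.0458). Myoc, myocilin, was at -0.43 and -0.56 against 2.13 and 1.51, a fall of 2.31 (SE 0.30, adjusted p = 0.0125). The scaffold Akap12 fell by 2.61 (SE 0.34, adjusted p = 0.0125) and Tgfb2, a growth factor of catagen, by 2.17 (SE 0.46, adjusted p = 0.0496). The lectin Cd209b fell by 1.83, the transcription factor Irf4 by 1.67 and Retnla, a product of alternatively activated macrophages, by 2.20 (adjusted p = 0.0437, 0.0199 and 0.0444).

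Of 12 late cornified envelope genes of the Lce1 family with a probe tested, which are close paralogs, 8 were called higher with at least 1 probe and 0 lower, where 2.61% of all genes were called higher with 1 probe a gene. They too were picked out after their values were seen, with Lce1g the highest at 3.19 (SE 0.46, adjusted p = 0.0188). The epidermal gap junction genes Gjb2 and Gjb6 rose by 5.70 (SE 0.74, adjusted p = 0.0125) and 4.86 (SE 0.61, adjusted p = 0.0116). Psors1c2 rose by 5.61 (SE 0.83, adjusted p = 0.0203), from 1.24 and 1.54 in wild type to 7.82 and 6.19 in hair loss. Fbp1, a gluconeogenic phosphatase, rose by 7.19 (SE 0.59, adjusted p = 0.00491). Il1f6, an interleukin 1 family cytokine of keratinocytes, rose by 5.48 (SE 1.1, adjusted p = 0.044), and the matrix metalloproteinase inhibitor Timp1 by 2.16 (SE 0.44, adjusted p = 0.0442).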
